A study of Mus musculus with 30 samples.

Results

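Coat and assembly proteins of the lipid droplet were followed through 10 genes, the 5 perilipins Plin1 to Plin5, the CIDE genes Cidec and Cidea, the fat storage-inducing genes Fitm1 and Fitm2, and the seipin gene Bscl2. They were picked by name, as a functional family, from 53350 named genes of the table. A lipid droplet is a core of neutral fat under a single layer of phospholipid. Perilipins sit on that layer and govern the access of lipases to the core, CIDE proteins gather where droplets touch and move fat from the smaller droplet to the larger, and FITM proteins and seipin act in the endoplasmic reticulum where droplets form. In fat cells Plin1 and Cidec are known as coat proteins of the large storage droplet, while Plin2 and Plin3 are found on droplets of most cell types. Loss of seipin causes a severe lipodystrophy in people.

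The cells were 3T3-L1, a mouse fibroblast line that can be turned into fat cells in culture. There were 6 groups of 5 cultures: QpE for 6 h, control for 6 h, QpE for 24 h, control for 24 h, QpE for 12 days and control for 12 days. QpE is the herbicide quizalofop-p-ethyl, given at 50 µM (0.05 mM), and the comparison asks how it acts on fat cell formation. All groups, controls included, were grown in wells with a differentiation medium that held insulin and the phosphodiesterase inhibitor 3-isobutyl-1-methylxanthine, and QpE was added once cells had been in that medium. The protocol's medium changes describe a shorter course than the 12 days of the labels, and the labels give the cultures of a group the numbers 1 to 5 without tying a number to a day or plate. The p-values therefore measure the spread between cultures of 1 line. In these bulk samples, fewer cells of a type and less RNA per cell cannot be told apart.

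Levels are in FPKM, fragments scaled to transcript length and library depth, so they can be set beside each other between genes. Each gene has 2 sums. The named sum adds the transcripts that carry the gene's name. The locus sum also adds unnamed transcripts assembled at a locus with that gene only. Differences are on the log2(FPKM + 1) scale with their SE, QpE minus control or later minus earlier time, and a gene is called when the p from limma, adjusted over all genes, is under 0.05. The adipocyte marker list (12 genes) summed to between 4594 and 9847 FPKM in QpE cultures at 12 days and between 1889 and 7491 FPKM in controls, against 294 to 1011 FPKM over the earlier groups. The 12 day cultures thus carried fat cell transcripts, with the defining markers Adipoq and Fabp4 among the genes tested. Endothelial markers summed to at most 0.658 FPKM and macrophage markers to at most 5.37 FPKM in any library, and Adgre1, which defines macrophages, was at 0 in every 12 day library. The deposited FPKM summed to between 413502 and 500489 per library.

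Of the 10 genes, 7 reached 1 FPKM in 5 or more libraries and were tested, namely Plin1, Plin2, Plin3, Plin4, Cidec, Fitm2 and Bscl2. The other 3, Plin5, Cidea and Fitm1, were below this level and are given by their values. Between 24 h and 12 days most tested members rose in both arms; Plin3 was called on neither sum, and Bscl2 in controls on the locus sum alone. With QpE at 12 days, Plin2 was the member that passed the test against controls, on its locus sum. On named sums 0 of 7 members were called in any comparison of QpE with control cultures.

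In 12 day against 24 h cultures given QpE, 6 of 7 members were called higher on either sum, against 11.8% of all genes on named sums and 16.9% on locus sums. In control cultures over the same interval 5 of 7 were higher on named sums, where 8.11% of all genes were, and 6 of 7 on locus sums, where 13.1% were. In 24 h against 6 h cultures given QpE, 2 members were higher on named sums (Plin2 and Cidec) and 4 on locus sums (Plin1 and Plin3 as well), against 6.58% and 12.5% of all genes. In controls, 1 member was higher on named sums (Plin3) and 2 on locus sums (Plin2 as well), against 5.62% and 10.5% of all genes. The 12 day counts lie far above the share of all genes, and the counts of 1 or 2 at 24 h less so. No member was called lower between any of these times.

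Between QpE and control cultures, limma called 0 of 7 members at 6 h on either sum and 0 at an unadjusted p under 0.05, where 0.00554% of all genes were called on named sums and 0.00684% on locus sums. Of all genes at 6 h, 596 of 18035 on named sums and 402 of 14616 on locus sums had an unadjusted p under 0.05. At 24 h it called 0 of 7 on either sum, with 1 at an unadjusted p under 0.05 on named sums and 3 on locus sums. The share of all genes called at 24 h was 0.0166% on named sums and 0% on locus sums. An unadjusted p under 0.05 was reached at 24 h by 1291 of 18035 genes on named sums and 1285 of 14616 on locus sums. At 12 days it called 0 of 7 on named sums (1 at an unadjusted p under 0.05), where 4.86% of all genes were called, and 1 of 7 on locus sums (Plin2), where 12.2% were. A count of 1 of 7 is close to the share of all genes there, so the call of Plin2 is a value of that gene and not of the group. An unadjusted p under 0.05 was reached at 12 days by 3852 of 18035 genes on named sums. On locus sums it was reached by 4069 of 14616 genes and by 2 of 7 members. The median difference of the 7 members at 12 days was 0.60 on either sum, against -0.01 over all genes on named sums and -0.00159 on locus sums.

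**Figure D1:**
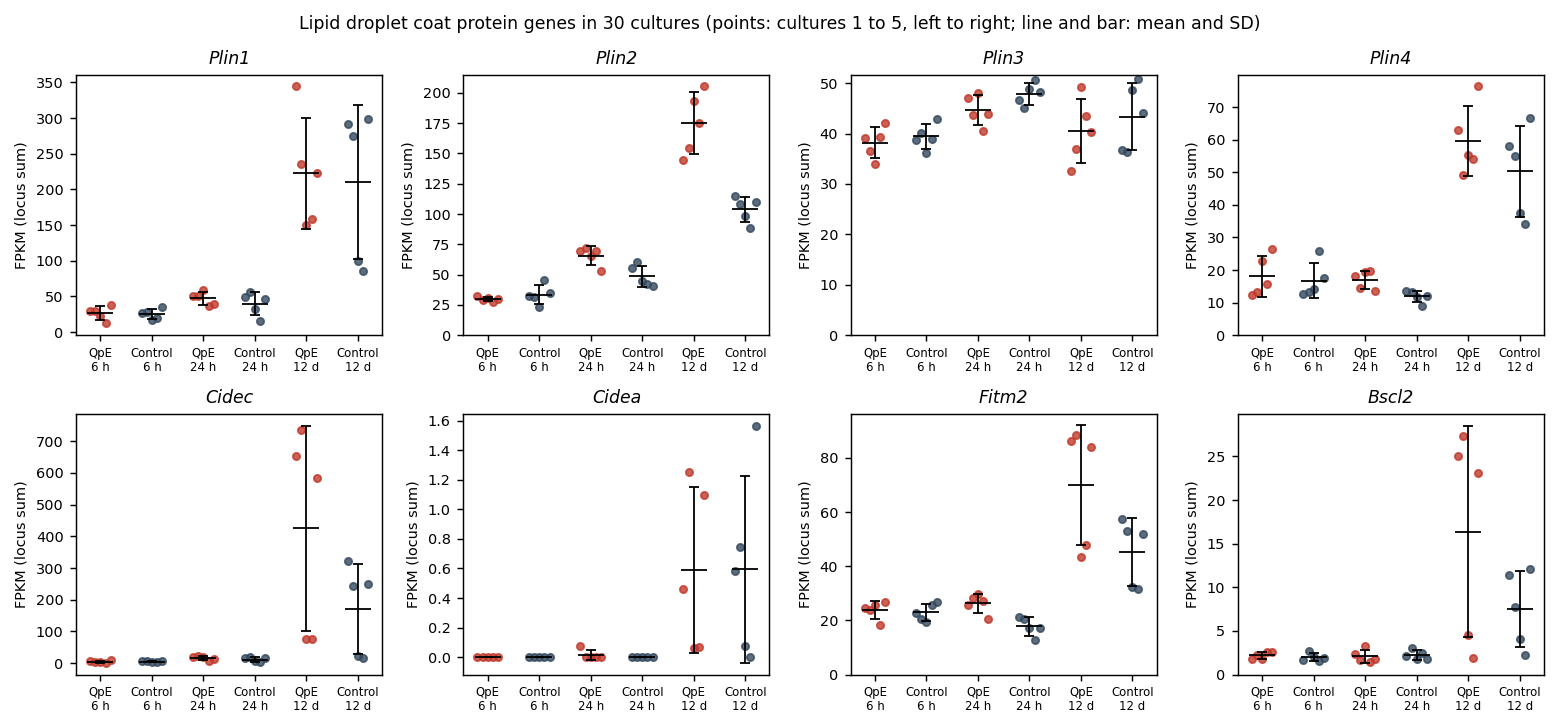
Locus-sum levels (FPKM) of 8 of the genes in each of 30 cultures, QpE in red and control in dark blue at 6 h, 24 h and 12 days, with the group mean and SD. At 12 days the QpE cultures sit between 145 and 206 FPKM for Plin2, all above the control cultures (88.1 to 115 FPKM), while in Cidec, Fitm2 and Bscl2 the 12 day groups overlap.

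Plin2, the droplet protein of most cell types, lies on chromosome 4 from 86648386 to 86670060 on the minus strand of GRCm38. Its RefSeq promoter window is shown because it is the member called against controls at 12 days, on its locus sum alone. Capitals mark, in order, a nuclear receptor core motif (AGGTCA, found on the other strand), a CCAAT box, an E-box (CACGTG) and a GC box (GGGCGG). The window runs from 250 bases before to 50 after the start, at chr4:86670010-86670309 on the minus strand of GRCm38.p6.
Plin2: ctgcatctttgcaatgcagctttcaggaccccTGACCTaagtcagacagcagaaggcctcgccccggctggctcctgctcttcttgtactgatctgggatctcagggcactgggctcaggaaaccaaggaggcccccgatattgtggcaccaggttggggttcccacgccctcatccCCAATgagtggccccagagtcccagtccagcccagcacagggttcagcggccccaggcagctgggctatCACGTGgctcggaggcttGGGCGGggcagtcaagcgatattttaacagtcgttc
The core motif begins 218 bases and the E-box 4 bases before the start. Searched on both strands of 32851 promoter windows of this length, the core motif was present in 16.3%, the CCAAT box in 37.4%, the E-box in 7.15% and the GC box in 35.7%. These matches are letters, not sites shown to be bound.

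At 12 days the Plin2 locus sum was 145, 155, 193, 176 and 206 FPKM in QpE cultures 1 to 5, against 115, 108, 98.5, 88.1 and 110 FPKM in control cultures. Every QpE culture was above every control culture. The means were 175 ± 25.6 FPKM with QpE and 104 ± 10.5 FPKM in controls (SD, n = 5 each), a log2 difference of 0.74 ± 0.12 (95% interval 0.47 to 1.01, limma adjusted p = 0.0111). The difference stayed called when any 1 of the 10 cultures was left out (0.68 to 0.80, adjusted p between 0.00798 and 0.0314), and with TPM scaling (0.66, adjusted p = 0.0132) and median-ratio scaling (0.78, adjusted p = 0.00933).

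On named transcripts alone the difference was not called. The Plin2 named sum was 70.8, 105, 129, 79.5 and 198 FPKM with QpE at 12 days and 108, 76.2, 93.1, 80.1 and 66.5 FPKM in controls, and these groups overlap. The means were 117 ± 51.1 FPKM with QpE and 84.9 ± 16.2 FPKM in controls (SD, n = 5 each), with a log2 difference of 0.37 ± 0.26 (95% interval -0.22 to 0.96, adjusted p = 0.463). Named transcripts held 45.3% to 96.3% of the Plin2 locus sum in QpE cultures and 60.7% to 94.5% in control cultures at that time. The call of Plin2 therefore depends on which transcripts are added.

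Part of the Plin2 locus sum came from 3 transcripts with a more distant 3′ end, 2 of them unnamed. At 12 days they held 74.4, 53.3, 65.1, 96.2 and 10.1 FPKM in QpE cultures and 7.60, 33.4, 5.62, 8.11 and 43.4 FPKM in controls. Their share of the summed Plin2 FPKM was 34.2% with QpE and 18.9% in controls. The groups overlap, QpE culture 5 lying among the controls, and the split between transcripts was not tested.

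**Figure D2:**
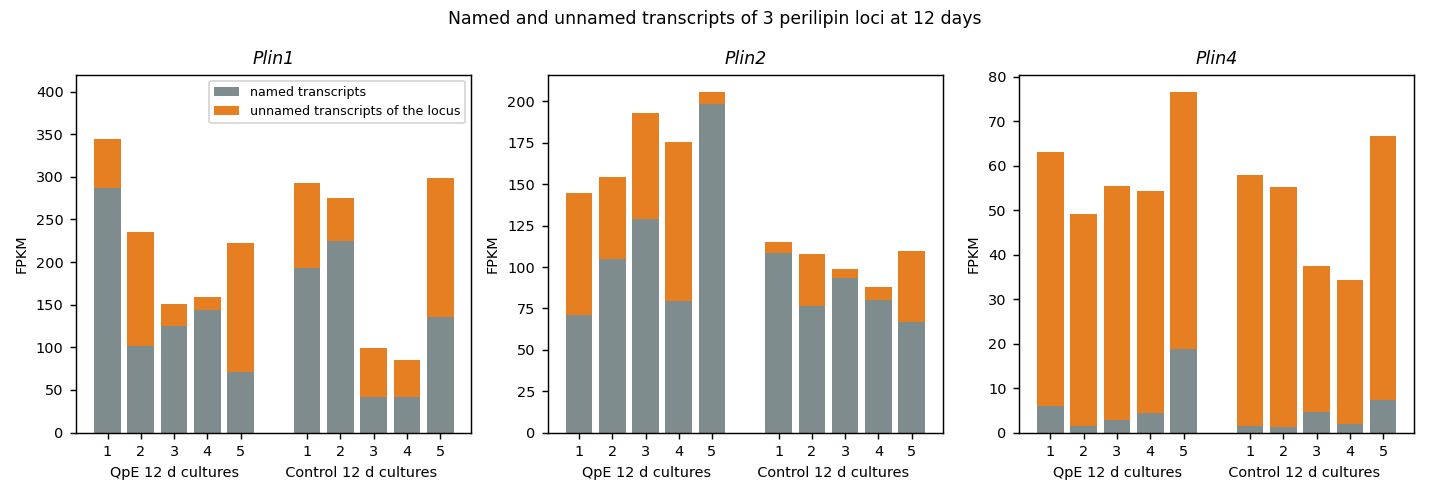
Bars give FPKM in each 12 day culture for 3 perilipin loci, QpE cultures 1 to 5 left of control cultures 1 to 5, with named transcripts in grey and unnamed transcripts of the same locus in orange. The Plin2 totals of the QpE cultures (145 to 206 FPKM) are all above those of the controls (88.1 to 115 FPKM), while the grey parts overlap; in Plin4 the unnamed part is most of each bar.

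At 24 h the Plin2 locus sum was 69.5, 71.8, 65.1, 69.3 and 52.7 FPKM with QpE and 55.7, 60.1, 44.8, 42.0 and 41.0 FPKM in controls. QpE culture 5 lay within the control range. The log2 difference was 0.43 ± 0.12 (95% interval 0.16 to 0.71), with an unadjusted p of 0.00579 and an adjusted p of 0.398. At 6 h the means were 29.9 ± 1.73 FPKM with QpE and 33.5 ± 7.86 FPKM in controls (SD, n = 5 each; log2 difference -0.13, 95% interval -0.44 to 0.17). Whether the difference at 12 days exceeded that at 24 h was tested as an interaction, which gave 0.31 ± 0.18 on locus sums (adjusted p = 0.381) and 0.14 ± 0.32 on named sums (adjusted p = 0.906). Of the 7 members, 0 were called in this interaction on either sum, against 0.0277% of all genes on named sums and 1.01% on locus sums. At an unadjusted p under 0.05 there were 0 members on either sum, against 2374 of 18035 genes on named sums and 2534 of 14616 on locus sums.

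Over time Plin2 was called higher at 24 h than at 6 h in QpE cultures on both sums (locus sum 1.10 ± 0.09, adjusted p = 4.55e-05). In controls it was called on the locus sum (0.54 ± 0.17, adjusted p = 0.0395) and not on the named sum (0.57 ± 0.19, adjusted p = 0.085). That locus call ended without control culture 1, 2, 3 or 5 at 6 h or 1, 2 or 3 at 24 h (adjusted p between 0.0142 and 0.0875 over 10 fits that each left out 1 culture). From 24 h to 12 days the locus sum rose by 1.39 ± 0.12 with QpE (adjusted p = 2.70e-05) and by 1.09 ± 0.12 in controls (adjusted p = 1.24e-04). In order of its mean locus sum, Plin2 was lowest in QpE and control cultures at 6 h, then in control and QpE cultures at 24 h, then in controls at 12 days, and highest with QpE at 12 days. Each neighbour up to QpE at 24 h overlapped with the next, and the 12 day groups stood apart from it and from each other.

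Plin1, the perilipin that coats the storage droplet of fat cells and holds lipolysis in check until hormones act, lies on chromosome 7 from 79720218 to 79732903 on the minus strand. Its locus sum at 12 days was 344, 235, 151, 159 and 222 FPKM with QpE and 292, 275, 99.0, 85.5 and 298 FPKM in controls. Both groups were wide and overlapped, with cultures 3 and 4 low in each. The means were 222 ± 77.8 FPKM with QpE and 210 ± 108 FPKM in controls (SD, n = 5 each; log2 difference 0.21, 95% interval -0.69 to 1.12, adjusted p = 0.772), and on named sums the difference was 0.37 (adjusted p = 0.756). Without 1 culture the locus difference ranged from -0.057 to 0.39, and it was below 0 without control culture 3 or 4. At 24 h the difference was 0.34 on locus sums and -0.19 on named sums, so its sign depends on the sum, and it was called on neither. From 24 h to 12 days the Plin1 locus sum rose by 2.17 ± 0.23 with QpE (adjusted p = 6.01e-05) and by 2.29 ± 0.46 in controls (adjusted p = 0.00338). On named sums the control rise was 2.04 (adjusted p = 0.0275), and this call ended without culture 3 or 4 at 24 h or 1, 2 or 5 at 12 days (adjusted p up to 0.0633).

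In 24 h against 6 h cultures given QpE, Plin1 was called higher on locus sums (47.2 ± 9.43 FPKM at 24 h and 26.2 ± 9.60 FPKM at 6 h; 0.89 ± 0.26, adjusted p = 0.0338). On named sums the same difference was 0.05 (21.4 FPKM at both times, adjusted p = 0.938). The locus call ended without QpE culture 3 at 6 h or 1, 2 or 3 at 24 h (adjusted p up to 0.0793), and with all 30 libraries in 1 fit (adjusted p = 0.0827). In controls it was 0.56 on locus sums and was not called (adjusted p = 0.265).

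Plin3, the perilipin known to move between cytosol and nascent droplets, lies on chromosome 17 from 56277476 to 56292873 on the minus strand and had 1 transcript and no unnamed one. It was the flattest member, with group means from 38.2 FPKM (QpE, 6 h) to 47.9 FPKM (control, 24 h). At 12 days it had 32.6, 37.0, 49.2, 43.4 and 40.2 FPKM with QpE and 36.8, 36.4, 48.7, 50.8 and 44.0 FPKM in controls, and the groups overlap (log2 difference -0.10, 95% interval -0.40 to 0.21). In controls at 24 h against 6 h it was called higher (47.9 ± 2.16 FPKM at 24 h and 39.4 ± 2.46 FPKM at 6 h, SD, n = 5 each; 0.28 ± 0.05, adjusted p = 0.0105), a call that ended on named sums with all 30 libraries in 1 fit (adjusted p = 0.0708) or with the replicate number as a block (adjusted p = 0.0517). With QpE over the same interval the rise was 0.22 ± 0.07, called on locus sums (adjusted p = 0.045) and not on named sums (adjusted p = 0.0728). That locus call held only without culture 5 at 6 h or culture 4 at 24 h, and ended without any of the other 8 (adjusted p up to 0.102) and with all 30 libraries in 1 fit (adjusted p = 0.0994). From 24 h to 12 days Plin3 differed by -0.15 in each arm and was not called.

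Plin4, a perilipin of early storage droplets in fat cells, lies on chromosome 17 from 56100591 to 56109803 on the minus strand, overlapping Hdgfl2 on the other strand. Only 2 of its 31 transcripts carried the name, and they held a mean of 5.06% to 13.7% of the locus sum in the 6 groups, so the named sum describes little of the locus. At 12 days the locus sum was 63.1, 49.2, 55.3, 54.2 and 76.6 FPKM with QpE and 58.0, 55.1, 37.5, 34.2 and 66.7 FPKM in controls. The groups overlap, and the log2 difference was 0.27 ± 0.20 (95% interval -0.16 to 0.71, adjusted p = 0.406). On named sums it was 0.66 ± 0.56 (6.69 ± 6.97 FPKM with QpE and 3.27 ± 2.57 FPKM in controls, adjusted p = 0.55). From 24 h to 12 days the locus sum rose by 1.75 ± 0.14 with QpE (adjusted p = 1.96e-05) and by 1.96 ± 0.19 in controls (adjusted p = 5.25e-05). On named sums the control rise was 1.23 (adjusted p = 0.049), a call that held only without culture 1 or 2 at 12 days (adjusted p up to 0.108), and the QpE rise was 1.85 (adjusted p = 0.0271), a call that ended without culture 3 or 4 at 24 h or 1 at 12 days (adjusted p up to 0.0637).

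At 24 h the Plin4 locus sum was 18, 14.4, 19.4, 19.6 and 13.6 FPKM with QpE and 13.7, 13.3, 11.6, 9.09 and 11.9 FPKM in controls. QpE culture 5 lay just inside the control range. The log2 difference of 0.48 ± 0.13 had an unadjusted p of 0.00428 and an adjusted p of 0.395, and on named sums, at most 2.13 FPKM in either group, it was 0.04. Whether counting used the strand is not given in the sources used here, so reads of Plin4 and Hdgfl2 cannot be told apart with certainty.

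Plin5, the perilipin of oxidative tissues such as heart, lies on chromosome 17 from 56111601 to 56117596 and was at most 0.146 FPKM in any culture. It was listed at 0 in 2 of 5 QpE cultures and 3 of 5 control cultures at 12 days.

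Compared between the times sampled, the share of Plin3 in the perilipin transcripts was at its lowest at 12 days in both arms. The share of Plin1 was at its highest then. Over the 5 perilipins the locus sums came to 112 ± 15.2, 175 ± 17.2 and 497 ± 65.4 FPKM in QpE cultures and 115 ± 16.3, 148 ± 22.5 and 408 ± 126 FPKM in controls at 6 h, 24 h and 12 days (SD, n = 5 each). Plin3 held 34.4%, 25.7% and 8.35% of this sum in QpE cultures and 34.6%, 33.1% and 12.1% in controls at those times. Plin1 held 22.8%, 26.9% and 43.9% in QpE cultures and 21.9%, 25.9% and 48.3% in controls. Plin2 held 35.7% ± 7.29 with QpE and 27.1% ± 6.70 in controls at 12 days, and these shares overlapped between cultures (24.8% to 43.1% with QpE and 21.1% to 34.7% in controls). Shares of 1 sum move against each other by construction and were not tested.

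**Figure D3:**
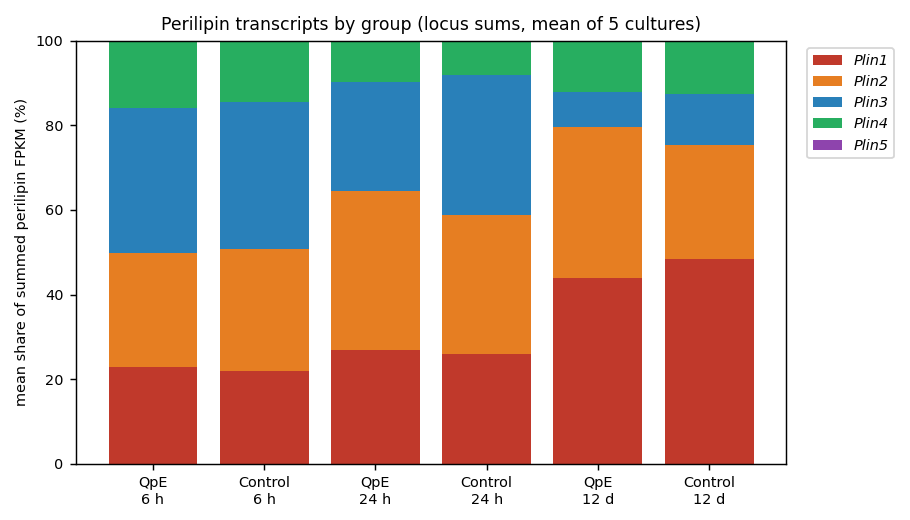
Stacked bars give the mean share (%) of each perilipin in the summed perilipin FPKM of a culture, on locus sums, for QpE and control cultures at 6 h, 24 h and 12 days. The Plin3 share is 8.35% with QpE and 12.1% in controls at 12 days, against 34.4% with QpE and 34.6% in controls at 6 h, and the Plin1 share is the largest at 12 days in both arms.

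Cidec, also called FSP27, lets fat pass between touching droplets so that large droplets form, and lies on chromosome 6 from 113424634 to 113435760 on the minus strand. With QpE at 12 days it had the highest mean FPKM of any member, and its groups were the widest. At 12 days its named sum was 635, 726, 77.4, 73.6 and 567 FPKM in QpE cultures 1 to 5 and 316, 238, 22.2, 17.1 and 237 FPKM in control cultures 1 to 5. Cultures 3 and 4 were far below the others in both arms, so the groups overlap although each QpE culture was above the control culture of its number. The means were 416 ± 316 FPKM with QpE and 166 ± 137 FPKM in controls (SD, n = 5 each), a log2 difference of 1.53 ± 1.06 (95% interval -0.82 to 3.89, adjusted p = 0.448; locus sum 1.51 ± 1.04, adjusted p = 0.379). Without 1 culture the locus difference ranged from 0.90 to 1.98.

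Whether replicate numbers paired the 12 day libraries was read from the correlation, across genes, of same-numbered libraries' deviations from their group means. It was over 0.1 in all 5 pairs on locus sums and in 4 of 5 on named sums. On locus sums cultures 1 and 2, and on named sums cultures 1, 2 and 3, correlated better with another number than with their own. Cultures 3 and 4 had low adipocyte markers in both arms. That split alone can make same-numbered libraries correlate, so these correlations cannot show that the numbers pair cultures 1 to 1. With the number as a block, the Cidec difference on locus sums had a far smaller error, 1.51 ± 0.16 (95% interval 1.14 to 1.89, adjusted p = 0.0160), and the 5 differences between same-numbered cultures ranged from 1.03 to 2.07. With this block 3 of 7 members were called (Plin2, Cidec and Fitm2), against 19% of all genes. On named sums the block gave 2 of 7 (Cidec and Fitm2, each with adjusted p = 0.0453), against 3.77% of all genes. The sample titles run in order of replicate number, with every group once at each number. The labels do not say that this order pairs cultures, and these calls depend on such pairing.

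Cidec was called higher at 12 days than at 24 h in QpE cultures (4.10 ± 0.71 on named sums, adjusted p = 0.0020) and in controls (3.32 ± 0.95, adjusted p = 0.0343). On named sums the control call ended without culture 1, 3, 4 or 5 at 24 h or 1, 2 or 5 at 12 days (adjusted p up to 0.0785), while on locus sums it held without each of the 10 cultures in turn (adjusted p up to 0.0466). In 24 h against 6 h cultures given QpE it was higher as well, with 17.5, 20.9, 17.7, 7.80 and 14.5 FPKM at 24 h and 6.48, 5.08, 2.69, 0.316 and 6.57 FPKM at 6 h (1.86 ± 0.48, adjusted p = 0.0325). No culture at 24 h fell within the 6 h range on these named sums. On locus sums the ranges overlap, with 7.91 FPKM in QpE culture 4 at 24 h and 8.94 FPKM in QpE culture 5 at 6 h. The call ended without QpE culture 3 at 6 h or 1, 2, 3 or 5 at 24 h (adjusted p up to 0.0756), while on locus sums it held without each culture. With all 30 libraries in 1 fit it ended on both sums (adjusted p = 0.141 on named sums and 0.119 on locus sums). In controls over that interval the difference was 0.92 ± 0.58 and was not called (adjusted p = 0.37). Between QpE and control cultures the Cidec difference was 0.76 ± 0.53 at 24 h (adjusted p = 0.787) and -0.18 ± 0.54 at 6 h.

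The Cidec locus had transcripts from 2 starts, whose RefSeq windows are shown because both were in use. The upstream window is at chr6:113435711-113436010 and the downstream one at chr6:113434715-113435014, minus strand, GRCm38.p6, with the core of a C/EBP motif (TTGCNNAA, present in 10.8% of windows) in capitals.
Cidec upstream: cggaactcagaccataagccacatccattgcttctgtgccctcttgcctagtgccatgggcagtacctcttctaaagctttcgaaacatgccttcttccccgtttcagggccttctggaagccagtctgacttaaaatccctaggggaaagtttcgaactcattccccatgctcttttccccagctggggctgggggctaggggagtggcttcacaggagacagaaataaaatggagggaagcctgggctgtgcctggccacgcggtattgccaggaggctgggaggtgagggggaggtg
Cidec downstream: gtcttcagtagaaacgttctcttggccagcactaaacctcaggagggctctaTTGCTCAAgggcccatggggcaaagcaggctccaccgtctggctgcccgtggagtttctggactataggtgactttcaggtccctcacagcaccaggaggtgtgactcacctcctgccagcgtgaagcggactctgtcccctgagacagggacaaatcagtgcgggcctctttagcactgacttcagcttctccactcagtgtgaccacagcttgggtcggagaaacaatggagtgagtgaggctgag
None of the 7 motifs searched was found in the upstream window. Transcripts from the upstream start held 59.8% of the summed Cidec FPKM with QpE and 54.3% in controls at 12 days. In single cultures the share ran from 49.6% to 71.9% with QpE and from 40.9% to 69.7% in controls, and the ranges overlap.

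Cidea, a CIDE protein best known from brown fat, lies on chromosome 18 from 67343604 to 67367785 and was listed at 0 in all 10 cultures at 6 h. At 12 days it was 0.462, 1.25, 0.0629, 0.0707 and 1.10 FPKM with QpE and 0.583, 0.743, 0.0733, 0 and 1.57 FPKM in controls. Cultures 3 and 4 were again the lowest in both arms, and the groups overlap. It did not reach the level for a test, so no change is claimed for it. The list of thermogenic fat cell markers (8 genes) summed to 33.2 to 53.8 FPKM with QpE and 21 to 41.9 FPKM in controls at 12 days, and to at most 6.01 FPKM earlier. All 3 of its tested genes were called higher at 12 days than at 24 h in each arm, and 0 of 3 between QpE and control cultures. Of all genes, 8.11% in controls and 11.8% with QpE were called higher over that interval on named sums. On locus sums the shares were 13.1% and 16.9%. A gene can reach the level for a test on 12 day libraries alone, so a low list like this one leans toward rises. Ucp1, the uncoupling protein that defines these cells, was at 0 in every QpE culture and at most 0.0444 FPKM in controls at 12 days.

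Fitm2, a protein of the endoplasmic reticulum that binds fat and helps droplets to bud, lies on chromosome 2 from 163466379 to 163472629 on the minus strand, with the antisense gene 2310001K24Rik over it. It had 1 transcript, so its sums are the same. At 12 days it was 86.1, 88.4, 43.6, 47.7 and 84.1 FPKM with QpE and 57.6, 53.1, 32.4, 31.4 and 51.8 FPKM in controls. Cultures 3 and 4 with QpE lay within the control range, and each QpE culture was above the control culture of its number by 0.42 to 0.73. The means were 70.0 ± 22.3 FPKM with QpE and 45.3 ± 12.4 FPKM in controls (SD, n = 5 each), and the log2 difference of 0.60 ± 0.26 (95% interval 0.01 to 1.19) was not called (adjusted p = 0.227; 0.163 among locus sums). It was called with the replicate block on locus sums (0.60 ± 0.07, adjusted p = 0.0163), and with the spread taken from all 30 libraries (adjusted p = 0.0368 on named sums and 0.0231 on locus sums). QpE cultures at 12 days had the widest spread of any group (median SD of a gene 0.35 on named sums and 0.28 on locus sums). A spread pooled over all groups understates it, so calls with all 30 libraries are less certain. In that last fit, 1 of 7 members was called on named sums, against 16.1% of all genes, and 2 of 7 on locus sums (Plin2 and Fitm2), against 26.1%, so both counts are near the share of all genes.

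At 24 h Fitm2 was 25.8, 28.3, 29.6, 27.2 and 20.5 FPKM with QpE and 21.1, 20.7, 17, 12.8 and 17.3 FPKM in controls. QpE culture 5 alone lay within the control range. The log2 difference was 0.55 ± 0.14 (95% interval 0.23 to 0.87), with an unadjusted p of 0.00335 and an adjusted p of 0.556. At 6 h it was 0.05 ± 0.12. Fitm2 rose by 1.33 ± 0.22 between 24 h and 12 days with QpE (adjusted p = 0.00168) and by 1.28 ± 0.20 in controls (adjusted p = 0.00208). In controls at 24 h it was 17.8 ± 3.37 FPKM, against 23 ± 3.16 FPKM at 6 h (log2 difference -0.36, adjusted p = 0.131). Fitm1, its relative of skeletal muscle, lies on chromosome 14 from 55575617 to 55576954 and was listed at 0 in 28 of 30 cultures.

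Bscl2 encodes seipin, which sits where droplets join the endoplasmic reticulum, and lies on chromosome 19 from 8837467 to 8848683 on the plus strand, overlapping Gng3 on the other strand and AC129217.1 on its own. At 12 days its named sum was 25, 27.2, 4.53, 1.94 and 23.1 FPKM with QpE and 11.4, 7.80, 1.32, 2.28 and 12.1 FPKM in controls. Cultures 3 and 4 were low in both arms, from 1.32 to 4.53 FPKM, and the groups overlap. The means were 16.4 ± 12.1 FPKM with QpE and 6.98 ± 5.01 FPKM in controls (SD, n = 5 each; log2 difference 0.94 ± 0.76, adjusted p = 0.527; locus sum 0.72 ± 0.69, adjusted p = 0.539). Without 1 culture the locus difference ranged from 0.42 to 1.23. From 24 h to 12 days Bscl2 was called higher with QpE (2.11 ± 0.62, adjusted p = 0.0283). On named sums that call ended without culture 1, 2, 4 or 5 at 24 h or 1, 2 or 5 at 12 days (adjusted p up to 0.0682), and on locus sums without culture 5 at 12 days (0.0511). In controls it was called on the locus sum (1.22 ± 0.36, adjusted p = 0.0233) and not on the named sum (0.99 ± 0.48, adjusted p = 0.181). The control call ended without culture 3 or 5 at 24 h or 1, 2 or 5 at 12 days (adjusted p up to 0.0533).

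Bscl2 transcripts began at 3 main places, and the 3 RefSeq windows are shown because each start held part of its FPKM at 12 days. They are at chr19:8837217-8837516, chr19:8839078-8839377 and chr19:8840253-8840552, plus strand, GRCm38.p6. Capitals mark CCAAT boxes, read on the other strand, in the first, a nuclear receptor core motif in the next and a GC box in the third.
Bscl2 upstream: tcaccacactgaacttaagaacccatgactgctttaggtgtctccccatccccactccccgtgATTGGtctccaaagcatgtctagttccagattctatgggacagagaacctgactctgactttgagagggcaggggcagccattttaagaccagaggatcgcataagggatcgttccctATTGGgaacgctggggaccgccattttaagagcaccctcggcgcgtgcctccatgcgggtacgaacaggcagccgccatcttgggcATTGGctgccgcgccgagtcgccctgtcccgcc
Bscl2 middle: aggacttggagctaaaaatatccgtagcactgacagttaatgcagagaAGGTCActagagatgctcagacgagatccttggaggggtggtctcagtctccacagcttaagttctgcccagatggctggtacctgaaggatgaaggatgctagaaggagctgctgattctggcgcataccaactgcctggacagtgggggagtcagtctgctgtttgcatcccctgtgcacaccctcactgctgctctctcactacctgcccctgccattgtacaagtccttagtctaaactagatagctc
Bscl2 downstream: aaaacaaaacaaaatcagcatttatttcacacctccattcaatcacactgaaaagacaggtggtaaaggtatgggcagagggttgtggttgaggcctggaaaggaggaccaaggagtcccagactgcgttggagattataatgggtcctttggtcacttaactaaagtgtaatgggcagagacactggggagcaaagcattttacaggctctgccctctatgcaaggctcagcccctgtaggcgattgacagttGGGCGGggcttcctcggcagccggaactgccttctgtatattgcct
Transcripts of the third start stood at 17.8, 22.9, 1.62, 0.293 and 15.4 FPKM with QpE and 5.35, 7.13, 0.581, 0.442 and 6.15 FPKM in controls at 12 days. They held 70.8% of the summed Bscl2 FPKM with QpE and 52.0% in controls, and in single cultures 15.1% to 83.4% with QpE and 14.1% to 91.4% in controls. The mean share per culture was 54.5% ± 28.2 with QpE and 44.5% ± 30.8 in controls (SD, n = 5 each). Summed FPKM give most weight to the cultures with high levels. The group means of this start were at most 0.977 FPKM at 6 h and 24 h. Transcripts of the middle start stood at 0.159, 4.01, 0.272, 0.455 and 7.27 FPKM with QpE and 0.379, 0.163, 0.589, 0.494 and 0.160 FPKM in controls, so only QpE cultures 2 and 5 lay above the control range. They held 14.8% of the summed FPKM with QpE and 4.73% in controls, and those of the first start 14.4% with QpE and 43.2% in controls. As a mean share per culture, the middle start held 15.2% ± 12.5 with QpE and 8.53% ± 9.03 in controls. The first start held 30.3% ± 29.1 with QpE and 47.0% ± 24.5 in controls. Cultures of the 2 arms overlap for each start, and the shares were not tested.

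**Figure D4:**
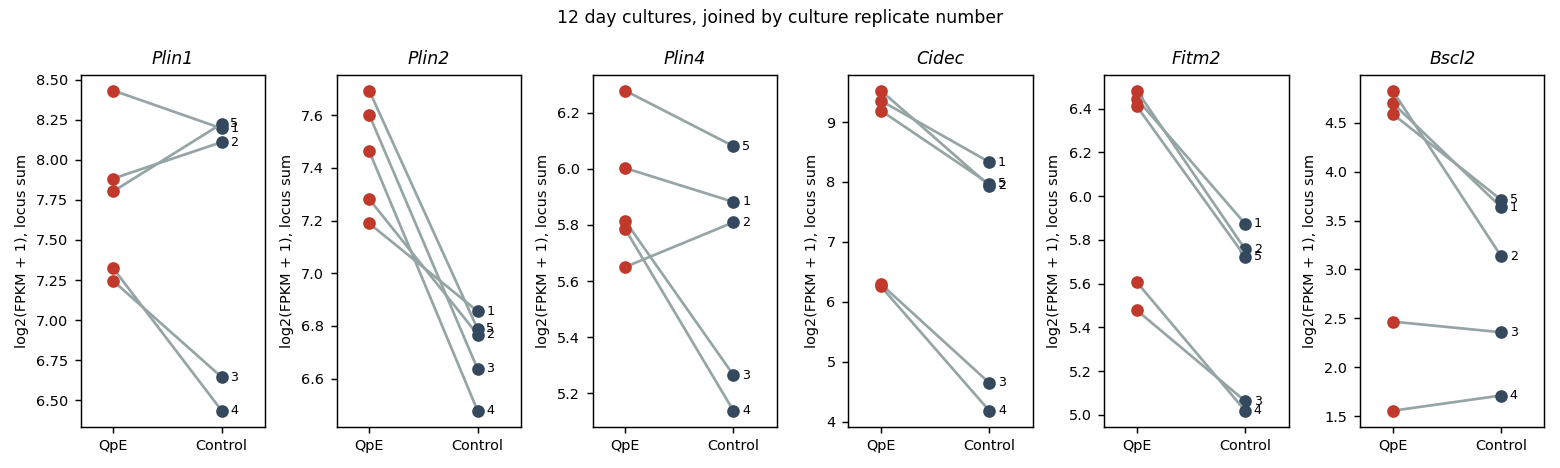
Locus-sum levels (log2 of FPKM + 1) at 12 days for 6 members, each QpE culture joined to the control culture of the same replicate number, which is written at its right end. All 5 lines are higher at the QpE end in Plin2, Cidec and Fitm2, 4 of 5 in Plin4 and Bscl2 and 3 of 5 in Plin1, and cultures 3 and 4 are the lowest of both arms in Plin1, Cidec, Fitm2 and Bscl2.

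The low values of cultures 3 and 4 at 12 days went with low adipocyte markers. The marker list summed to 4594 and 5331 FPKM in QpE cultures 3 and 4, against 9413 to 9847 FPKM in the other 3, and to 2744 and 1889 FPKM in control cultures 3 and 4, against 6913 to 7491 FPKM in the other 3. Cultures numbered 3 and 4 also had the lowest sums at 6 h, 381 and 294 FPKM with QpE and 323 and 354 FPKM in controls. In controls at 24 h they were again lowest (552 and 354 FPKM). With QpE at 24 h the lowest were cultures 4 and 5 (607 and 650 FPKM). Fibroblast markers (9 genes) summed to between 467 and 2282 FPKM in QpE cultures and between 4626 and 5515 FPKM in controls, without overlap, and QpE culture 5 was the lowest. limma called 4 of 8 tested fibroblast markers lower with QpE at 12 days on named sums and 6 of 8 on locus sums (median difference -1.56 and -1.49), against 2.73% and 7.16% of all genes called lower. Of 10 tested adipocyte markers 0 were called higher on named sums and 1 on locus sums (median 0.87 and 0.74), against 2.13% and 5.06% of all genes called higher. The part of these marker differences in the Plin2, Cidec, Fitm2 and Bscl2 values was not tested. For Plin2 the arms stood differently beside the marker sums. With QpE, cultures 3 and 4 had 193 and 176 FPKM on locus sums, between cultures 1 and 2 (145 and 155 FPKM) and culture 5 (206 FPKM). In controls, cultures 3 and 4 had the lowest Plin2 levels, 98.5 and 88.1 FPKM, against 108 to 115 FPKM in the other 3. This difference between the arms was not tested.

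**Figure D5:**
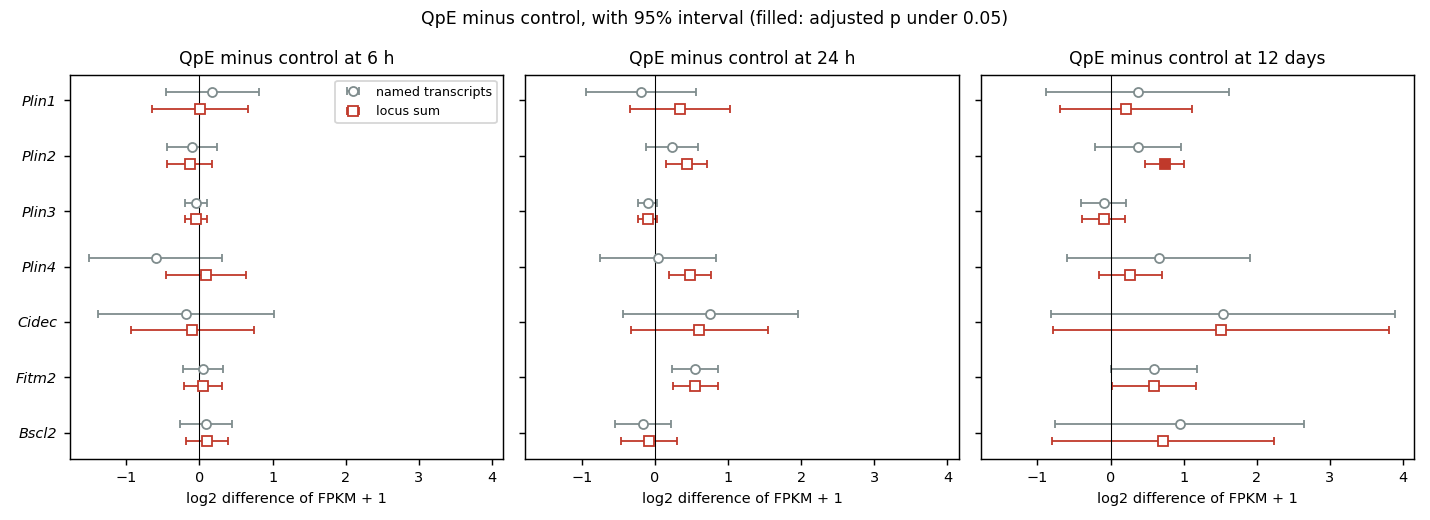
Log2 differences of FPKM + 1, QpE minus control, at 6 h, 24 h and 12 days for the 7 tested members, on named transcripts (grey circles) and on locus sums (red squares), with 95% intervals; filled symbols passed the adjusted p threshold. Plin2 at 12 days on the locus sum (0.74) is the 1 filled symbol, and the Cidec and Bscl2 intervals at 12 days are the widest.

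Other genes of the droplet surface and of fat turnover were counted from lists of names. Of 23 further droplet proteins 20 were tested, and at 12 days with QpE 0 were called higher and 1 lower on named sums, and 2 higher and 2 lower on locus sums (median difference 0.05 and 0.06, against -0.01 and -0.00159 over all genes). The shares of all genes called higher were 2.13% and 5.06%, and lower 2.73% and 7.16%, so these counts are not far from the background. Abhd5, which activates the fat cell lipase Pnpla2 and is held by Plin1, was 146 ± 10.5 FPKM with QpE and 99.2 ± 6.03 FPKM in controls on locus sums (SD, n = 5 each; 0.55 ± 0.08, adjusted p = 0.00965). Rab3gap1, part of an activator of Rab18, was 27.1 ± 5.07 FPKM with QpE and 19.3 ± 0.844 FPKM in controls (0.45 ± 0.11, adjusted p = 0.0311). Rdh10, a retinol dehydrogenase, was lower on both sums, at 4.95 ± 0.570 FPKM with QpE and 9.12 ± 0.872 FPKM in controls (-0.77 ± 0.12, adjusted p = 0.0182 on named sums). Lpcat2, which remakes phosphatidylcholine, was lower on locus sums, at 0.302 ± 0.205 FPKM with QpE and 1.32 ± 0.402 FPKM in controls (-0.83 ± 0.16, adjusted p = 0.0155).

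Among genes of lipolysis 0 of 8 tested were called on named sums and 2 of 10 were higher on locus sums with QpE at 12 days (median 0.65 and 0.53). Of genes that assemble triglyceride, 1 of 10 was higher on named sums and 2 of 10 on locus sums (median 0.43 and 0.48). Beside the 2.13% and 5.06% of all genes called higher, counts of 0 to 2 in lists of this length carry little weight. None of the genes in these 3 lists was called at 6 h or 24 h on either sum. The macrophage list had 1 tested gene of 6, the endothelial list 0 of 5, the thermogenic list 3 of 8 and the skeletal muscle list 2 of 6, and of these 1 muscle gene was called, higher with QpE at 12 days. Beside the same 2.13% and 5.06% of all genes, 1 call of 2 tested carries little weight. Myod1 and Myog of the muscle list were at 0 in every 12 day library.

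Which genes followed the members most closely over all 30 libraries was ranked by Pearson's r on named sums, among 8264 other genes with a mean of 5 FPKM or more. Cidec was followed by Acsl1, which activates fatty acids (r = 0.98), by Cebpa, a transcription factor of fat cells (0.98), and by Scarb1, a lipoprotein receptor (0.98). Nearest to Plin1 were Tmem120a (0.95), Lgals12 (0.94) and Pfkfb3 (0.94), and nearest to Bscl2 were Fasn, fatty acid synthase (0.96), Gpt (0.96) and Aacs (0.95). Fitm2 lay nearest to Miga2 (0.97), Pim3 (0.96) and Noct (0.96), and Plin2 to Nupr1 (0.93), Nampt (0.93) and Scly (0.92). Plin3 had Pde6d (0.86) and Dscr3 (0.86) among its nearest, and Plin4, whose named sum is low, had Pi4k2a (0.81), Pgam5 (0.77) and Rbpms (0.77). These values join the change over time with the spread between cultures of a group. Time and spread were not separated, and the values carry no p.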

How the data were processed

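RNA from 30 cultures was measured by RNA sequencing of poly(A) libraries. The authors deposited FPKM per transcript in 1 table, and the submitters' processing notes list HISAT, HISAT2, StringTie and the GRCm38 build. Settings and the use of strand in counting were not stated there or in the labels. In 10 libraries the deposited columns, otherwise FPKM, held 11 values just below 0 (other numbers, lowest -7e-05), which were set to 0. Of 150146 transcripts 16259 had no gene name, and 10567 of these could be joined to the only named gene of their locus. No test for counts was applied to these normalized values. Depth, estimated from steps between low FPKM, was 9500000 to 17500000 fragments per library, and no interval was drawn from it.

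Transcript FPKM were summed per gene name (the main sum, 18035 rows tested, 12744 of them named) and, as the second sum listed at the outset, per locus (14616 tested). Genes at 1 FPKM or more in at least 5 libraries were tested as log2(FPKM + 1), which understates the change of low genes, with limma 3.58.1 in R 4.3.3 and a mean-variance trend, two-sided, on the compared groups only, with Benjamini-Hochberg adjustment over all genes tested. The fit was tested on data simulated from the named sums, and locus sums were not simulated. False calls came near the threshold share where genes' spreads were drawn from the moderated variances, the same in every group. They came above it where spreads were drawn from each group's own SDs. Calls close to the threshold are therefore less certain than their adjusted p. Other settings were the replicate block, all 30 libraries in 1 fit, a pseudocount of 0.1, no filter, 2 scalings, the most abundant transcript only and leaving out each culture. Locus sums combined with the block, with all libraries, with each scaling or with leaving out a culture were added after seeing the data.

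The members and lists were chosen with earlier results of these data known. Genes named beyond the 10 members are the 3 nearest in r to each tested member and, of the further droplet proteins, up to 4 called rises and 4 called falls per QpE comparison; other lists are given by counts and medians. Of the genes this rule names, 1 is not reported here. The pairing of cultures by number at 12 days is an assumption of the replicate block. The correlations of same-numbered libraries were 0.19, 0.19, 0.33, 0.38 and 0.16 on locus sums, all over 0.1. On named sums they were 0.11, 0.08, 0.18, 0.21 and 0.11. They cannot tell pairing by number from a split shared by both arms. Loci are from GENCODE on GRCm38, and promoter windows, found for 9 of the 10 genes, from RefSeq on GRCm38.p6.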

Additional observations from a re-analysis of the deposited data

Results flagged for a closer look

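Among 83 groups of 5 values examined, 3 held a value far from the other 4. The rule flags any value above 0 beside 4 values at 0, so its chance rate of about 1 in 20 does not apply to these 3. Each was a trace of a gene too low to test. Cidea was 0.0729 FPKM in QpE culture 1 at 24 h and listed at 0 in the other 4. Fitm1 was 0.0862 FPKM in QpE culture 1 at 12 days and 0.121 FPKM in control culture 4 at 12 days, and listed at 0 in the other 4 of each group.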

How the results depend on the processing

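Of members called at 12 days with QpE (0 on named sums), the count was 1 with all 30 libraries in 1 fit, 2 with the replicate block, 1 on locus sums and with their TPM or median-ratio scaling, 3 on locus sums with the replicate block and 2 on locus sums with all 30 libraries. For controls at 24 h against 6 h (1) it was 0 with all 30 libraries or the replicate block, and 2 on locus sums, also with the block, all libraries or median-ratio scaling. For controls at 12 days against 24 h (5) it was 4 with all 30 libraries, the replicate block or a pseudocount of 0.1. It was 2 with no filter, 3 with the most abundant transcript only, and 6 on locus sums, also with the block, all libraries or either scaling. For QpE at 24 h against 6 h (2) it was 1 with all libraries (either sum), a pseudocount of 0.1, no filter, TPM scaling or the most abundant transcript. It was 4 on locus sums and with their median-ratio scaling, and 3 on locus sums with the block. Leaving out 1 culture gave, on named and locus sums, 0 to 0 and 1 to 1 for QpE at 12 days, 1 to 2 and 1 to 4 for controls at 24 h against 6 h, 2 to 5 and 5 to 6 for controls at 12 days against 24 h, 1 to 3 and 2 to 4 for QpE at 24 h against 6 h, and 4 to 6 and 5 to 6 for QpE at 12 days against 24 h. The count stayed at 0 for QpE against control at 6 h and 24 h and for the difference between the 12 day and 24 h effects.

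Signs turned in differences that were not called. At 6 h Plin4 was 0.093 on locus sums (with the block or all libraries too), 0.11 with their median-ratio and 0.12 with their TPM scaling, and Bscl2 -0.23 with the most abundant transcript. At 24 h Plin1 was 0.34 on locus sums (block, all libraries and median-ratio scaling too) and 0.29 with TPM scaling, Plin4 -0.22 with a pseudocount of 0.1 and -0.025 with TPM scaling, and Bscl2 0.064 with the most abundant transcript. For QpE at 24 h against 6 h Plin1 was -0.039 with TPM scaling and -0.50 with the most abundant transcript, and Bscl2 0.37 with that transcript. For the 12 day minus 24 h effect, locus sums gave Plin1 -0.13 (-0.084 median-ratio, -0.17 TPM) and Plin4 -0.21 (-0.16, -0.25), and TPM scaling gave Plin3 -0.026 on either sum. Without 1 culture, differences ranged at 6 h from -0.018 to 0.42 (Plin1), -0.21 to 0.026 (Plin2), -0.49 to 0.25 (Cidec) and -0.0066 to 0.14 (Fitm2), at 24 h from -0.19 to 0.22 (Plin4), for QpE at 24 h against 6 h from -0.20 to 0.24 (Plin1), and for the difference of effects from -0.074 to 0.29 (Plin2), -0.067 to 0.078 (Plin3) and -0.069 to 0.20 (Fitm2). The causes were not tested. Levels under 1 FPKM limit Plin5, Cidea and Fitm1.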
